A study of Mus musculus with 112 samples.

Results

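The genes whose symbols begin with Mrpl or Mrps, which encode proteins of the mitochondrial ribosome, were followed in hearts from 7 strains of male mice that ate a control diet or were placed on caloric restriction (CR). Every gene with such a symbol was taken if it had a probe set that names 1 gene, pseudogenes were left out, and the brightest probe set stood for the gene. This gave 77 of the 19938 genes measured, of which 50 belong to the large subunit, 26 to the small subunit and 1, Mrps36, is counted with neither because its product is now known as part of a dehydrogenase complex. Mrpl53 was left out since its probe set carries the symbol of another gene as well. Symbols follow older usage, so Mrps30 and Mrps18a are counted with the large subunit, where their products sit.

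The inbred strains were 129S1/SvImJ, BALB/cJ, C57BL/6J, C3H/HeJ, CBA/J and DBA/2J, and B6C3F1/J is an F1 hybrid with a C57BL/6J and a C3H/HeJ parent. The 14 groups held 8 mice each, 1 array per mouse, and every mouse was a male in a cage of its own. Until 8 weeks of age all ate 84 kcal of purified food weekly, then CR or control feeding began, and hearts were taken at 22 weeks of age, 14 weeks later, after an overnight fast. Restriction was made deeper along the way for 129S1/SvImJ and for C57BL/6J, and BALB/cJ mice received more food in both arms, so strain and food intake cannot be told apart. DBA/2J CR replicate 7, which the study left out for heart, correlated at 0.262 with the mean of its group, against 0.894 to 0.996 for all other arrays, and it was left out here. The lowest of those was CBA/J control replicate 1. Heart tissue holds several cell types, and in such samples fewer cells of a type and less RNA per cell cannot be told apart. Cardiomyocyte markers were bright on every array used, their mean lying between 10.9 and 12.8 on the log2 scale. Markers of atrial cardiomyocytes ranged widely within every strain but 129S1/SvImJ, from 5.94 to 11.3 in control hearts and from 5.92 to 11.4 in CR hearts.

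The mitochondrial ribosome translates the few proteins that mitochondrial DNA still encodes, all of them subunits of the respiratory chain and of ATP synthase. Its rRNAs come from mitochondrial DNA, whereas every protein of the particle is encoded in the nucleus, made in the cytosol and imported. Many of its proteins have counterparts in bacterial ribosomes and many others were added during the evolution of mitochondria. Heart, which lives on oxidative phosphorylation, is rich in mitochondria.

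The promoters of the members that rose most are shown as a description. The part of promoter sequence in the rise of the members was not tested. RefSeq (GRCm38.p6) gave 74 promoter windows for 68 of the 77 members, each running from 250 bases before to 50 bases after an annotated start. The stretches printed below hold the last 150 bases before the start, 5′ to 3′ on the strand of the gene, and capitals mark a match to a searched motif on either strand. They lie at chr9:98601680-98601829 on the minus strand for Mrps22, at chr11:97315566-97315715 on the plus strand for Mrpl45 and at chr3:32736756-32736905 on the minus strand for Mrpl47.
Mrps22: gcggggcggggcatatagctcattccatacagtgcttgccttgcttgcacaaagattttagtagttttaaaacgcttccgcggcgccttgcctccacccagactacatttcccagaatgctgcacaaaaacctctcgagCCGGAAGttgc
Mrpl45: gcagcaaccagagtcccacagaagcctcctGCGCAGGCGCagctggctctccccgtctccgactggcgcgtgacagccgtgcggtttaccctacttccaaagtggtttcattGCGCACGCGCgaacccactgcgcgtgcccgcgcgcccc
Mrpl47: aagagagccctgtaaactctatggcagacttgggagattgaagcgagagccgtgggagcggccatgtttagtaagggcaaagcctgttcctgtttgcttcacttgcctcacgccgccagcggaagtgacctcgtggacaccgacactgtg
In Mrps22 the capitals are the CCGGAAG core read by ETS factors such as GABP, which begins 11 bases before the start. Mrpl45 held the palindromic consensus of nuclear respiratory factor 1 (Nrf1), in which the middle base may vary, beginning 120 and 38 bases before its start. The Mrpl47 stretch held no match to any of the searched motifs. Over both strands and the full windows, the Nrf1 consensus was in 17.6% of member windows and in 4.60% of all 32851 promoter windows. CCGGAAG stood in 33.8% against 8.86%, and AAGATGGC, the site of Yy1, in 16.2% against 2.75%. CACGTG, the E-box bound by Myc among others, was in 9.46% against 7.15%, and TCAAGGTCA, the site of the estrogen-related receptors, in 0% against 0.423%. CCGGAAG and AAGATGGC can share the letters AAG, and the windows were not matched for base composition. Of the 36 members with a window that rose in CR, 13 held CCGGAAG and 6 held the Nrf1 consensus. Among the 32 members with a window that did not pass the test, 12 held CCGGAAG and 7 held the Nrf1 consensus. A match is a description of the letters and not a measured binding site.

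The first question was whether CR changed these genes across strains. Averaged over the 7 strains, 40 of the 77 members were higher in CR hearts, 0 were lower and 37 did not pass the test, whereas 7.69% of all genes were higher and 4.34% lower (limma, adjusted p under 0.05 over all genes). The median member differed by 0.12 on the log2 scale, against -0.0026 for all genes, and 73 of 77 members lay above 0. At an unadjusted p under 0.05, 56 members were higher (13.9% of all genes) and 0 lower (11.1%). Among the members called, Mrps22 showed the largest rise, 1.32-fold, and Mrpl40 the smallest, 1.08-fold. With DBA/2J CR replicate 7 kept in the fit, 17 members were higher (2.74% of all genes) and 0 lower. Markers of other cell types differed in the same comparison. Of 6 endothelial markers 4 were called lower, their mean running from 7.25 to 9.01 in control mice and from 7.21 to 8.84 in CR mice. Of 8 white adipocyte markers 3 were called lower (6.35 to 9.78 and 6.21 to 9.36), and of 6 macrophage markers 3 were called higher (6.84 to 8.25 and 6.97 to 8.95). The part of the endothelial and macrophage markers in the rise of the members was not tested. The members also rose and fell together from mouse to mouse. The mean pairwise correlation of their deviations from the group means was 0.47 over the arrays used, against 0.0047 for all genes, so the 77 genes are not independent readings, and the arrays share their normalization. The member mean was also set beside the atrial and white adipocyte markers within groups, a comparison made after seeing the data. In 12 of 14 groups the array with the highest atrial mean lay below the group median of the member mean, and in 6 of them it was the lowest of its group. BALB/cJ control replicate 7, with atrial markers at 11.1 and white adipocyte markers at 8.70, had a member mean of 7.34 against 7.49 to 7.94 in the other mice of its group. CBA/J CR replicate 2, at 11.1 and 8.00, had 7.59 against 7.92 to 8.25. The part of these markers in the shared movement was not tested.

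**Figure D1:**
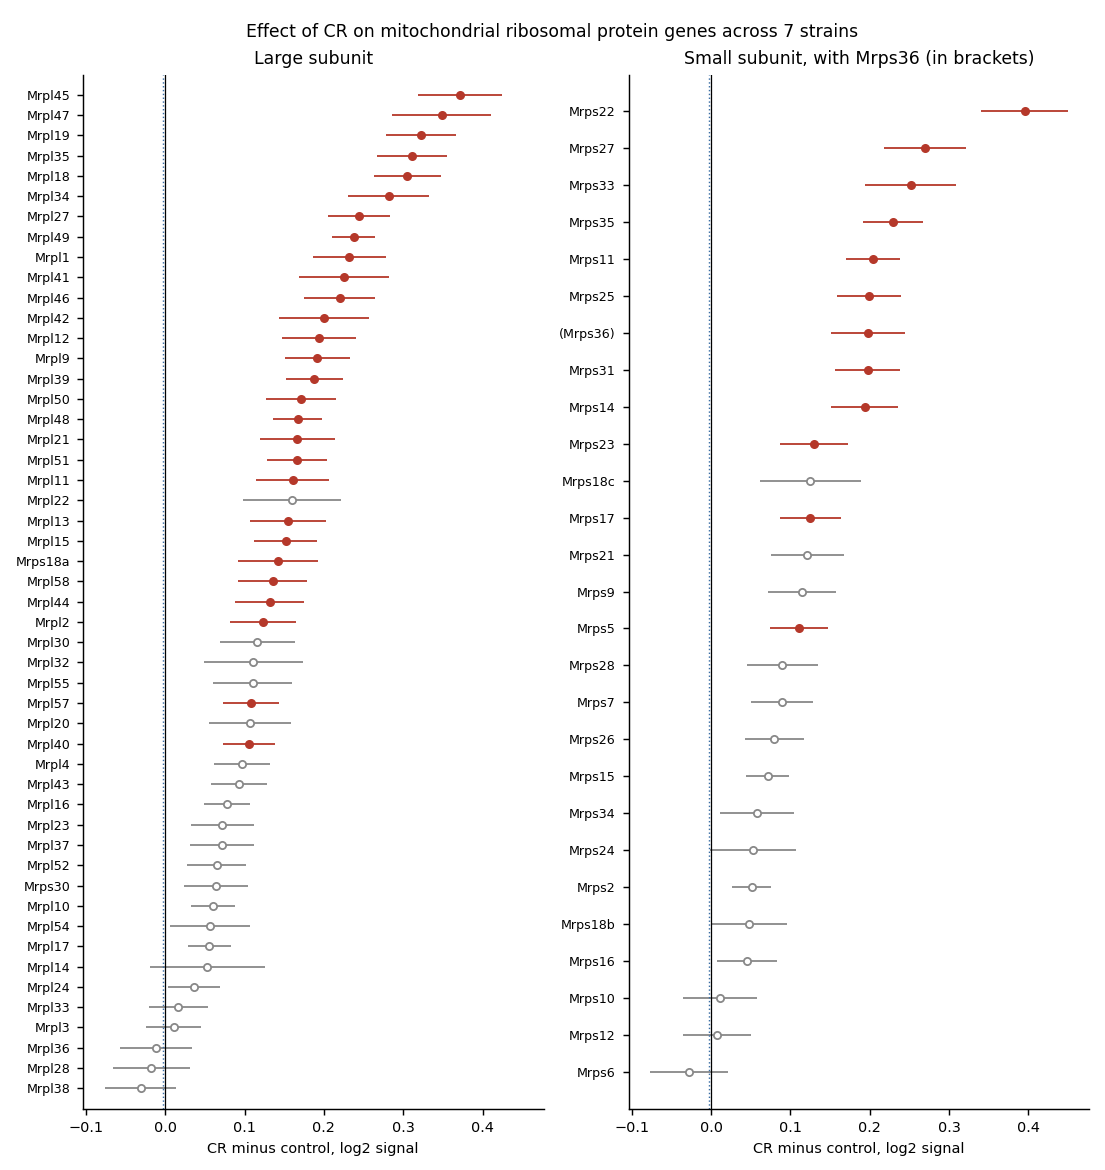
Difference between CR and control hearts for each of the 77 members, as the mean over 7 strains on the log2 scale with its standard error. Filled red points passed the test, open points did not, the dotted line marks the median of all genes (-0.0026), and 40 members lie to the right with a filled point.

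Mrps22, a small subunit protein found only in mitochondria and linked to inherited cardiomyopathy in infants, rose by 0.40 ± 0.055 (SE, log2, adjusted p = 2.37e-08). In 129S1/SvImJ its lowest, median and highest log2 signals were 6.85, 7.16 and 7.46 in control mice and 7.35, 7.77 and 8.35 in CR mice. In C57BL/6J they were 6.87, 7.75 and 8.35 in control mice and 7.73, 8.11 and 8.70 in CR mice. The CR median lay above the control median in every strain, yet the groups overlapped within each strain, and the strain with the smallest difference, C3H/HeJ, had medians of 7.41 and 7.55. Mrpl45, which sits at the exit of the peptide tunnel and anchors the ribosome to the inner membrane, rose by 0.37 ± 0.053 (adjusted p = 4.71e-08). Its control signals in 129S1/SvImJ ran from 7.16 over a median of 7.35 to 7.40, and its CR signals from 7.58 over 7.81 to 8.01. Every CR mouse of that strain was above every control mouse. In C57BL/6J the control signals ran from 6.77 over 7.08 to 7.34 and the CR signals from 7.18 over 7.87 to 8.08, with a small overlap.

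Mrpl19, a protein with a bacterial counterpart at the face between the subunits, rose by 0.32 ± 0.044 (adjusted p = 1.64e-08). In 129S1/SvImJ its control signals were 7.04, 7.23 and 7.47 at the lowest, median and highest mouse, and its CR signals 7.48, 7.80 and 8.04. In C57BL/6J the control signals were 7.13, 7.25 and 7.47 and the CR signals 7.49, 7.77 and 8.05. The diets did not overlap in these strains and did in the other 5, where the medians differed by less. Mrpl49, a large subunit protein particular to mitochondria, had the smallest adjusted p of the members (3.99e-11) with a rise of 0.24 ± 0.027. The study itself had listed Mrpl49 among its CR genes of the heart on these samples, so its direction is not independent evidence. In C57BL/6J the Mrpl49 signals ran from 7.28 over 7.46 to 7.65 in control mice and from 7.77 over 8.08 to 8.15 in CR mice, without overlap. In CBA/J they ran from 8.10 over 8.21 to 8.39 in control mice and from 8.03 over 8.19 to 8.48 in CR mice, almost the same range.

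**Figure D2:**
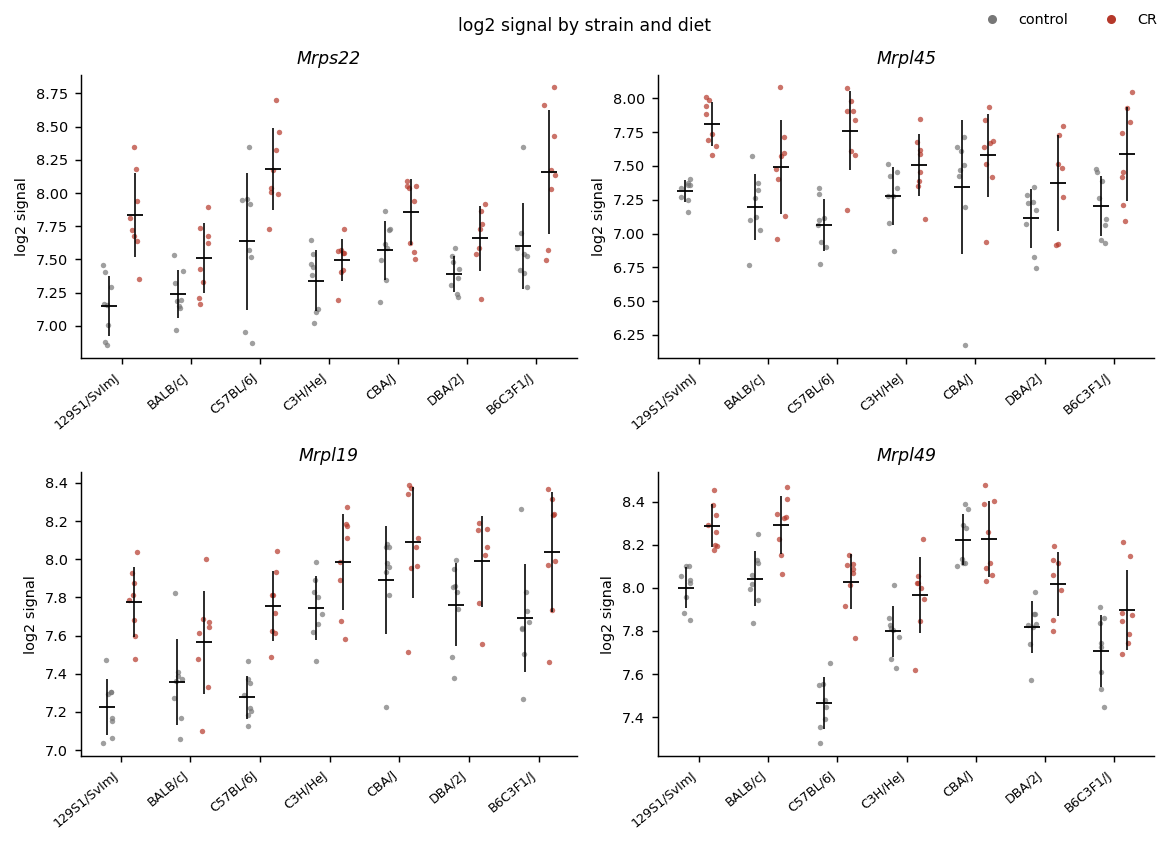
log2 signal of Mrps22, Mrpl45, Mrpl19 and Mrpl49 in each mouse, by strain (horizontal axis) and diet (grey control, red CR), with the group mean and SD in black. In 129S1/SvImJ and C57BL/6J all CR mice sit above the control mice of their strain for Mrpl19 and Mrpl49, whereas the Mrpl49 values of the CBA/J groups span almost the same range.

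Other large subunit members with a rise of similar size had bacterial counterparts. Mrpl47, at the tunnel exit, rose by 0.35 ± 0.062 (adjusted p = 1.41e-05), but its dimmer probe set gave 0.08 ± 0.048 (adjusted p = 0.311). Mrpl35 rose by 0.31 ± 0.044 and Mrpl18, whose bacterial counterpart holds the small rRNA of the large subunit, by 0.30 ± 0.042. Mrpl34 rose by 0.28 ± 0.051 with 6 of 7 strains above 0, the exception being CBA/J at -0.09. Mrpl27, whose counterpart reaches toward the catalytic centre, rose by 0.24 ± 0.039, and Mrpl1, of the mobile stalk where tRNAs leave, by 0.23 ± 0.046. In the small subunit, Mrps27, an RNA-binding protein of the pentatricopeptide kind, rose by 0.27 ± 0.052, and Mrps33 by 0.25 ± 0.057. These adjusted p-values ran from 2.08e-08 for Mrpl18 to 0.000777 for Mrps33.

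The rise was spread over the particle. In the large subunit 28 of 50 members were higher, with a median difference of 0.13, and in the small subunit 11 of 26, with a median of 0.11. Mrps36, counted with neither, rose by 0.20 ± 0.047. Members found only in mitochondria were called more often (21 of 30, median 0.15) than members with bacterial counterparts (18 of 46, median 0.11), a difference that was not tested. It was wider in the small subunit, where 7 of 10 mitochondria-specific members and 4 of 16 conserved members were higher. Members were called at all levels of brightness. Split by mean signal into 3 parts of nearly equal size, 13 of 26, 13 of 25 and 14 of 26 members were higher from dim to bright, against 11.1%, 14.7% and 19.6% of all genes in the same ranges of signal. Probe sets of Mrps12 and Mrps17 were the dimmest of the members (5.78 and 5.80) and those of Mrps21 and Mrpl23 the brightest (9.87 and 9.58), which gives no order of transcript amounts. Members with the other sign were Mrpl38 at -0.03 ± 0.045, Mrps6 at -0.03 ± 0.050, Mrpl28 at -0.02 ± 0.049 and Mrpl36 at -0.01 ± 0.046, and none of them passed the test. A pair of probe sets was present for 8 members, and both had the same sign in all 8. Mrpl41 was called with the brighter probe set (0.23 ± 0.057) and not with the dimmer (0.10 ± 0.042, adjusted p = 0.133).

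Other genes of mitochondrial translation were called in the higher direction and none in the lower, in lists that were chosen with results of these data known. Across strains 7.69% of all genes were higher, and 11.1% to 19.6% of those in the signal range of the members. Of 16 translation factors 8 were higher and 0 lower, with a median of 0.10. Mtif2, which starts translation, was higher by 0.21 ± 0.037, Taco1, an activator of cytochrome oxidase translation, by 0.23 ± 0.054 and the elongation factor Tsfm by 0.15 ± 0.042. Of 19 mitochondrial aminoacyl-tRNA synthetases and amidotransferase subunits 7 were higher and 0 lower (median 0.05), led by Qrsl1 at 0.29 ± 0.054 and Gatc at 0.18 ± 0.029. Assembly and rRNA modification factors counted 9 higher and 0 lower of 23 (median 0.09), among them the methyltransferases Mettl15 (0.22 ± 0.036) and Mrm3 (0.20 ± 0.040). The 4 measured mitoribosomal proteins with other symbols (Dap3, Chchd1, Ptcd3 and Gadd45gip1) ran from 0.05 to 0.15 and none passed the test. Among 62 cytosolic ribosomal proteins 17 were higher and 0 lower (median 0.08), and among 35 complex I subunits 8 and 0 (median 0.08). Both lists are brighter than most members (median signals 9.63 and 10.5). Of the complex I subunits 22.9% were called. The bright range of the members, where 19.6% of all genes were higher, ends at a signal of 9.87, below the complex I median. The share of all genes at higher signals was not computed.

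Of 9 regulators of mitochondrial biogenesis 1 was higher and 3 were lower, where 7.69% of all genes were higher and 4.34% lower. Ppargc1a, the coactivator that drives mitochondrial biogenesis, rose by 0.34 ± 0.056 (adjusted p = 2.03e-06, higher in 7 of 7 strains). Nrf1, whose motif is in some member promoters, fell by 0.10 ± 0.033, Yy1 fell by 0.11 ± 0.023, and the coactivator Pprc1 fell by 0.14 ± 0.039. In the list of mitochondrial DNA transcription and maintenance 3 of 9 genes rose, namely the elongation factor Tefm (0.20 ± 0.053), the DNA-binding protein Ssbp1 (0.15 ± 0.045) and the nuclease Mgme1 (0.08 ± 0.026). The polymerase Polg fell by 0.11 ± 0.035. Of the mRNAs that the particle translates, 1 of 13 had a probe set with 1 symbol, at -0.02, and it did not pass the test.

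**Figure D3:**
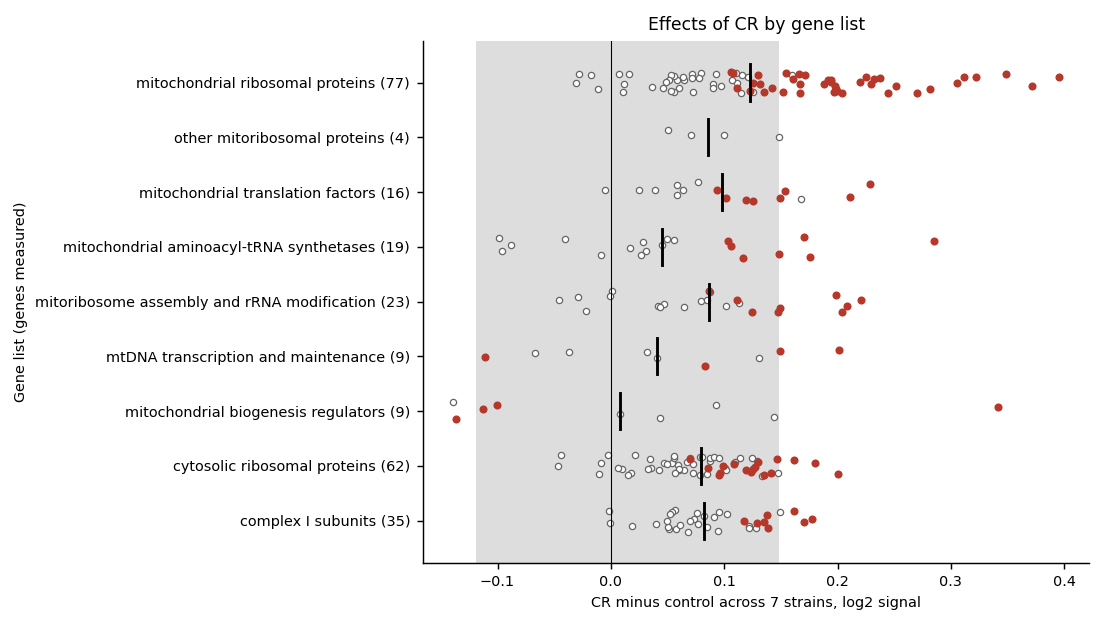
Difference between CR and control hearts across 7 strains (log2) for each gene of each list, with the number of genes measured in brackets. Red points passed the test, black bars are list medians, and the grey band spans the 5th to 95th percentile of all genes (-0.12 to 0.15), which 32 members exceed.

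The second question was how far the strains differed in this response. When each strain was fitted by itself, 25 members were higher in CR hearts of 129S1/SvImJ, where 3.88% of all genes were higher and 2.94% lower, and 4 in C57BL/6J, where 0.15% were higher and 0.1% lower. No member was called in the other 5 strains, and none was lower in any strain. Few genes of any kind were called in those: 0% higher and 0% lower in BALB/cJ, 0.0251% and 0.0301% in C3H/HeJ, 0.01% and 0.00502% in CBA/J, 0.01% and 0% in DBA/2J, and 0.211% and 0.697% in B6C3F1/J. At an unadjusted p under 0.05 the members higher in CR were 44 in 129S1/SvImJ (11.1% of all genes), 41 in C57BL/6J (6.27%), 20 in BALB/cJ (4.35%), 17 in B6C3F1/J (9.91%), 8 in C3H/HeJ (4.36%), 7 in DBA/2J (2.97%) and 3 in CBA/J (3.34%), the CBA/J share of members lying near that of all genes. None was lower, where 9.65%, 6.33%, 2.17%, 11.5%, 2.97%, 2.13% and 3.43% of all genes were, in the same order. The member medians were 0.24 in C57BL/6J, 0.18 in B6C3F1/J, 0.17 in 129S1/SvImJ, 0.13 in BALB/cJ, and 0.04 to 0.06 in C3H/HeJ, CBA/J and DBA/2J. Single arrays moved several medians, in either direction. Without 1 array the median fell to 0.07 in BALB/cJ (control replicate 7), 0.11 in B6C3F1/J (CR replicate 2), 0.03 in C3H/HeJ (control replicate 6) and -5.9e-05 in DBA/2J (control replicate 5). It rose to 0.22 in B6C3F1/J (control replicate 7), 0.26 in C57BL/6J (CR replicate 4) and 0.07 in CBA/J (control replicate 1). The mean of all 77 members was 7.91 ± 0.19 (SD, n = 8) in C57BL/6J control hearts and 8.16 ± 0.064 in CR hearts, and in C3H/HeJ it was 7.83 ± 0.11 and 7.87 ± 0.14. Of the members 33 were above 0 in all 7 strains (4.87% of all genes) and 54 in at least 6 (15%).

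The 4 members called in C57BL/6J were Mrpl45 (0.70 ± 0.12), Mrpl49 (0.56 ± 0.080), Mrpl19 (0.48 ± 0.088) and Mrps11 (0.44 ± 0.087), a conserved small subunit protein. In 129S1/SvImJ the largest were Mrps22 (0.68 ± 0.12) and Mrpl18 (0.57 ± 0.081). For 10 members every CR mouse of 129S1/SvImJ was above every control mouse (0.928% of all genes), namely Mrpl18, Mrpl19, Mrpl39, Mrpl45, Mrpl46, Mrpl48, Mrpl49, Mrps27, Mrps33 and Mrps35. In C57BL/6J this held for Mrpl19, Mrpl49 and Mrps11 (0.0903% of all genes). It held for 0 members in the other strains, where 0.0351% to 0.1% of all genes did so (0.0451% in BALB/cJ, 0.0752% in DBA/2J, 0.0702% in B6C3F1/J). Marker means of other cells differed between the diets in several strains, and their part in the result was not tested beyond the covariate fit that follows. In C57BL/6J the mean of 6 atrial cardiomyocyte markers was 9.97 in control and 7.54 in CR hearts and the mean of 8 white adipocyte markers 8.19 and 7.20. The mean of 9 cardiomyocyte markers differed by 0.42. In C57BL/6J the CR minus control difference was also -1.24 for brown adipocyte, -0.47 for red blood cell and -0.46 for lymphocyte markers. Over the strains the brown adipocyte difference ran from -1.24 in C57BL/6J to 0.24 in BALB/cJ, and it was -0.52 in DBA/2J. These lists did not enter the covariate fit, and their part was not tested. In 129S1/SvImJ the atrial markers stood at 6.29 and 6.36 and the white adipocyte markers at 6.87 ± 0.15 (SD) and 6.57 ± 0.13. The endothelial marker mean of 129S1/SvImJ fell without overlap, from 8.58 to 8.95 in control mice to 8.24 to 8.46 in CR mice. In B6C3F1/J the CR minus control difference was 1.38 for atrial, 0.39 for macrophage, -0.43 for endothelial and -0.25 for cardiomyocyte markers. Atrial markers also differed by 0.86 in CBA/J and by 0.71 in C3H/HeJ. With the atrial and the adipocyte mean as covariates, 0 members were called in 129S1/SvImJ (0.0602% of all genes), 1 in C57BL/6J (0.0502%) and 1 in C3H/HeJ (0.15%), while across strains 46 were higher (8.36%) and 0 lower. In 129S1/SvImJ the number of all genes higher went from 774 to 12. The adipocyte mean of that strain itself differed between the diets, so the fit could not fully separate diet from that mean. With the covariates the member median was 0.23 in B6C3F1/J, 0.17 in C57BL/6J, 0.16 in CBA/J, 0.15 in BALB/cJ, 0.10 in 129S1/SvImJ, 0.08 in C3H/HeJ and 0.03 in DBA/2J. When all 14 groups shared 1 estimate of the spread, 17 members were called in C57BL/6J (2.77% of all genes), 15 in B6C3F1/J (6.3%), 9 in 129S1/SvImJ (1.41%) and 0 in the others. Leaving out 1 array raised the counts of members and of all genes in some cases and not in others. Without its CR replicate 4, C57BL/6J had 18 members higher and 2.78% of all genes. Without its control replicate 7, B6C3F1/J had 9 members higher and 3.36% of all genes. Without its CR replicate 2, B6C3F1/J had 0 members higher, and the genes higher went from 42 to 32. BALB/cJ, C3H/HeJ, CBA/J and DBA/2J also stayed at 0 members when 1 array of the strain was left out.

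Mrpl49 was the only member whose response differed between strains by the interaction test (F = 5.48, adjusted p = 0.0186), where 0.712% of all genes passed. Its difference was 0.56 in C57BL/6J, 0.29 in 129S1/SvImJ, 0.25 in BALB/cJ, 0.20 in DBA/2J, 0.19 in B6C3F1/J, 0.17 in C3H/HeJ and 0.0037 in CBA/J. The call was lost without C57BL/6J (adjusted p = 0.52), without CBA/J (0.0927), with the marker covariates (0.0803) and with DBA/2J CR replicate 7 kept (0.588). Without CBA/J control replicate 1, Mrpl39 passed as well (1.36% of all genes). With 6 arrays left out together (control replicates 1 of CBA/J, 5 of DBA/2J, 7 of BALB/cJ and 6 of C3H/HeJ, CR replicates 4 of C57BL/6J and 2 of B6C3F1/J), 9.18% of all genes and 8 members passed, namely Mrpl49, Mrpl39, Mrpl51, Mrpl9, Mrpl45, Mrpl37, Mrps5 and Mrpl18. In the full set of arrays used, the remaining 76 members showed no interaction that passed the threshold, which does not show that the strains responded alike.

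**Figure D4:**
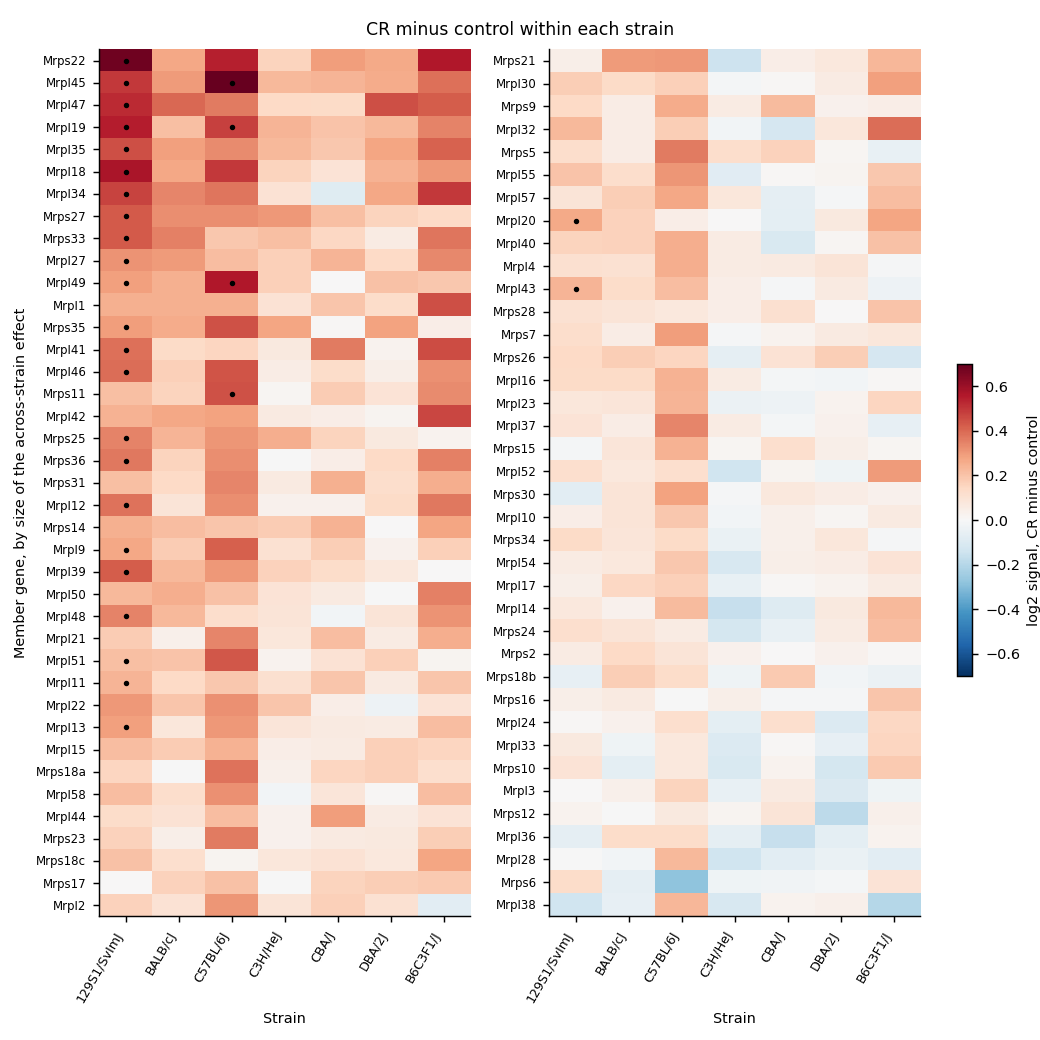
Difference between CR and control hearts (log2, color) for each member (rows, from the largest to the smallest across-strain effect, left then right) in each of 7 strains, with dots where the within-strain test passed. Dots appear in 129S1/SvImJ (25) and C57BL/6J (4) only.

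The levels of most members differed between strains. In control hearts 68 of 77 differed among the 7 strains, where 60.7% of all genes did, and in CR hearts 69 did, where 59.6% of all genes did. The same 65 members were called under both diets. Mrpl42, a mitochondria-specific large subunit protein, had the widest range of strain means, 2.11 on the log2 scale. Its control signals ran from 9.45 over a median of 10.4 to 10.7 in C57BL/6J, and no control mouse of any other strain was above 9.31. The lowest group, BALB/cJ, ran from 7.58 over 8.15 to 8.60. In CR hearts the C57BL/6J signals of Mrpl42 ran from 10.4 over 10.5 to 10.8, again clear of all other mice. The part of sequence differences under the probes in strain differences was not tested, here and for the members that follow.

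Mrps18c, a relative of Mrps18a and Mrps18b, was highest in C57BL/6J as well, where its control signals ran from 8.17 over a median of 9.02 to 9.76. In BALB/cJ they ran from 7.17 over 7.66 to 7.93, below every C57BL/6J mouse. The mean was 7.59 ± 0.27 (SD, n = 8) in BALB/cJ and 7.66 ± 0.18 in DBA/2J. Mrpl41, also mitochondria-specific, stood at 7.64 ± 0.47 in C57BL/6J and had its lowest mean, 6.35 ± 0.21, in DBA/2J, with no overlap between these groups. The dimmer probe set of Mrpl41 gave a difference of 0.52 ± 0.11 between these strains where the brighter gave 1.29 ± 0.15. For Mrps27 the order was another one. CBA/J (7.29 ± 0.55), 129S1/SvImJ (7.03 ± 0.12) and DBA/2J (7.01 ± 0.29) were high and BALB/cJ was low (6.03 ± 0.20), and without CBA/J control replicate 1 the lowest CBA/J value was 7.13 and not 6.01. Mrpl35 was highest in C57BL/6J (9.03 ± 0.33) and lowest in C3H/HeJ (7.81 ± 0.14). Mrpl14, Mrpl20 and Mrpl22, all with bacterial counterparts, had ranges of 1.05, 0.95 and 0.92. For Mrpl20, C57BL/6J was the lowest strain (6.86 ± 0.31). Of the 9 members that did not pass, Mrpl45 and Mrps11 were among those that rose in CR.

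**Figure D5:**
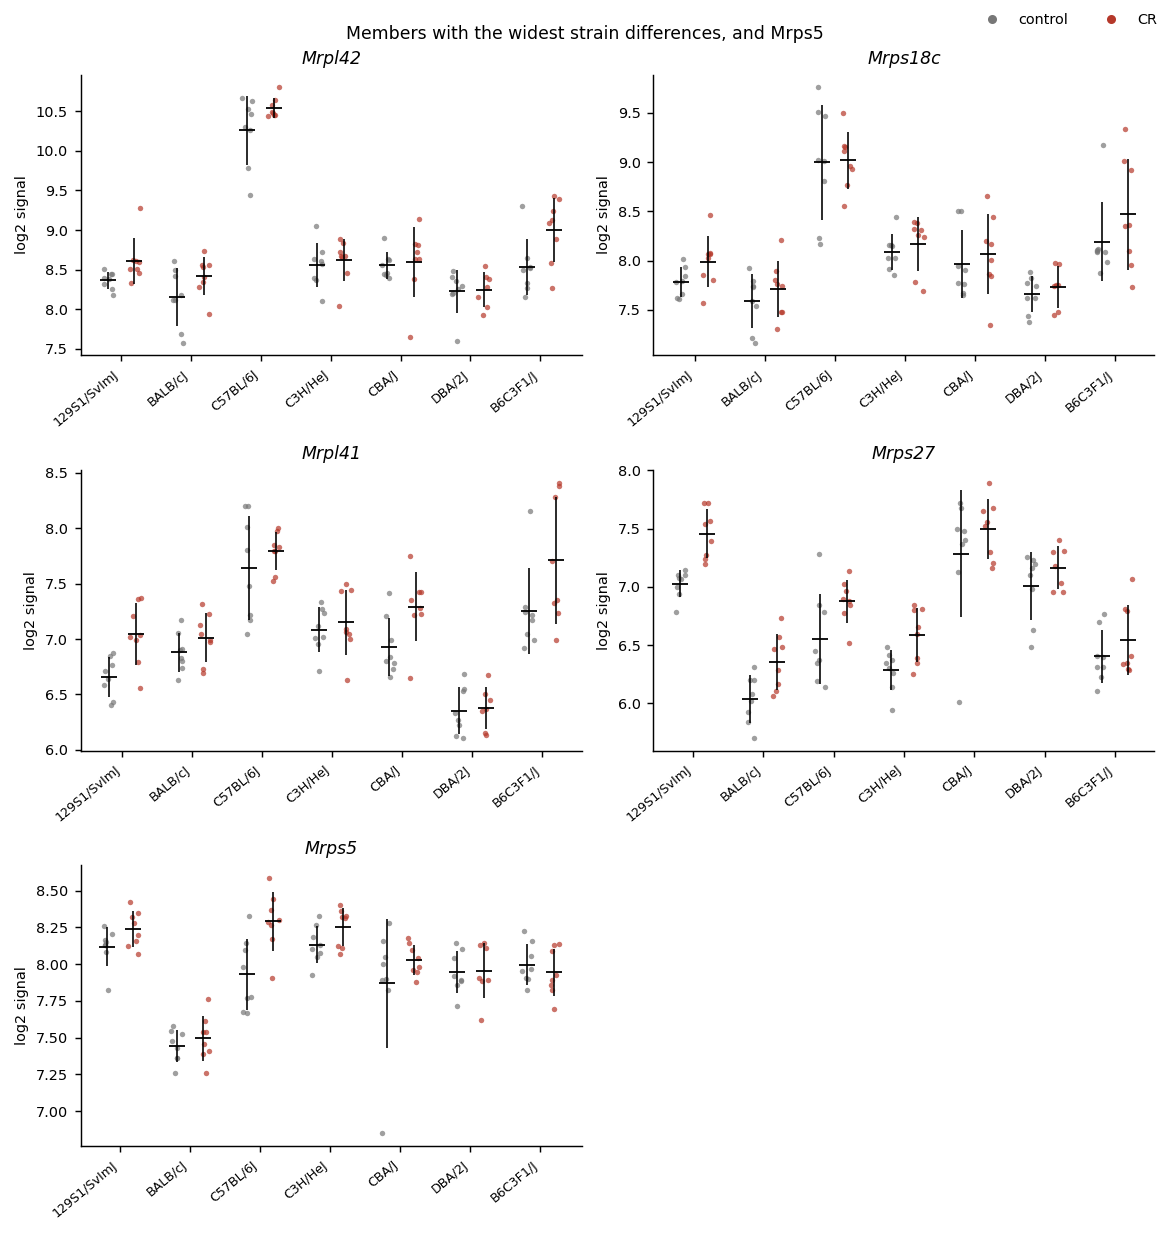
log2 signal of the 4 members with the widest strain differences and of Mrps5 in each mouse, by strain (horizontal axis) and diet (grey control, red CR), with the group mean and SD in black. C57BL/6J stands above all other strains for Mrpl42 under both diets, and BALB/cJ is the lowest strain for Mrps27 and Mrps5.

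Each inbred strain was set against the mean of the other 5. In control hearts of BALB/cJ 29 members were lower and 5 higher (all genes, 5.64% and 8.24%), with a member median of -0.17, and in CR hearts 23 were lower and 4 higher (4.28% and 6.57%). CBA/J had 27 higher and 2 lower members in control hearts (all genes, 12.8% and 10.8%), but 6 higher and 2 lower in CR hearts (4.16% and 2.49%). In C57BL/6J 25 were higher and 16 lower in control hearts (all genes, 16.4% and 22.9%), and 35 and 8 in CR hearts (10.6% and 17.3%). In 129S1/SvImJ 14 were higher and 5 lower in control hearts (10.1% and 8.88%), and 15 and 1 in CR hearts (5.65% and 6.3%). C3H/HeJ had 4 higher and 6 lower in control hearts (3.2% and 2.7%), and 2 and 17 in CR hearts (3.21% and 3.87%). DBA/2J had 5 higher and 11 lower in control hearts (5.34% and 3.59%), and 1 and 18 in CR hearts (5.5% and 4.63%). In both diets 26 members were called with the same sign in BALB/cJ, 33 in C57BL/6J, 11 in DBA/2J, 10 in 129S1/SvImJ, 8 in C3H/HeJ and 7 in CBA/J, and 0 with opposite signs in any strain. Atrial markers differed among control hearts too, with means of 9.97 in C57BL/6J and 6.29 to 7.94 in the other strains.

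Mrps5, a conserved small subunit protein, is known from crosses of C57BL/6J with DBA/2J, in which lower expression went with longer life. In control hearts its signal was 7.93 ± 0.24 in C57BL/6J and 7.94 ± 0.14 in DBA/2J, a difference of -0.01 ± 0.095 (adjusted p = 0.935). In CR hearts it was 8.29 ± 0.20 and 7.96 ± 0.19 (n = 7), a difference of 0.34 ± 0.099 (limma, adjusted p = 0.0071). For the dimmer probe set the difference was 0.18 ± 0.097 in control hearts (limma, adjusted p = 0.157) and 0.42 ± 0.10 in CR hearts (adjusted p = 0.000743). Whether the 2 diets differ in this contrast was not tested apart from the interaction over all strains, which Mrps5 did not pass (adjusted p = 0.401). BALB/cJ was the lowest strain for Mrps5 under both diets, at 7.44 ± 0.11 and 7.49 ± 0.15. Across strains Mrps5 rose in CR by 0.11 ± 0.036 (adjusted p = 0.0288), a call that was lost when 129S1/SvImJ, C57BL/6J or C3H/HeJ was left out (adjusted p = 0.0977, 0.251 and 0.0738). Its second probe set gave 0.14 ± 0.037.

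Between C57BL/6J and DBA/2J control hearts 40 members differed, 22 higher in C57BL/6J and 18 lower, where 12.2% of all genes were higher and 18.4% lower. The largest were Mrpl42 (2.04 ± 0.15), Mrps18c (1.34 ± 0.17) and Mrpl41 (1.29 ± 0.15) among those higher in C57BL/6J, and Mrpl20 (-0.66 ± 0.14), Mrpl37 (-0.58 ± 0.10) and Mrps18b (-0.54 ± 0.12) among those lower. In CR hearts 43 differed, 37 higher and 6 lower, where 9.48% and 14.7% of all genes did, and 28 were called under both diets with the same sign and 0 with opposite signs. When both marker means entered as covariates, 48 members differed in control hearts (28.1% of all genes).

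The cross B6C3F1/J was set against the mean of its parents. In control hearts 12 members differed, 10 higher and 2 lower, where 5.94% of all genes were higher and 4.01% lower. Mrpl42 was lower by the largest amount, -0.88 ± 0.13 (adjusted p = 3.26e-07). Contrasts chosen after these values were seen put Mrpl42 of the cross far from C57BL/6J (-1.73 ± 0.15) and next to C3H/HeJ (-0.02 ± 0.15). In CR hearts the cross was -1.54 ± 0.15 from C57BL/6J and 0.38 ± 0.15 from C3H/HeJ. Mrps18a (0.46 ± 0.11), Mrpl54 (0.42 ± 0.11) and Mrpl37 (0.38 ± 0.091) were higher than the parent mean. In CR hearts 22 members differed, 17 higher and 5 lower, where 12.1% and 14% of all genes did, and 7 members were called under both diets. The count in control hearts fell to 5 without B6C3F1/J control replicate 7 (10.7% of all genes), whose member mean was the highest of its group, and to 5 without C3H/HeJ control replicate 6 (7.58%).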

How the data were processed

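Heart RNA of 112 mice (5 µg of total RNA, labeled with biotin) was hybridized to Affymetrix Mouse Gene 1.0 ST arrays, 1 mouse per array. The authors deposited a log2 signal for each probe set, computed with the gene-level RMA-Sketch method of Affymetrix Expression Console (background correction, quantile normalization and median polish), of a version not given in the sources used here. Quantile normalization sets each array relative to the rest, so a shift shared by most genes would be partly removed, and differences of dim genes are compressed. Arrays have no read depth, and their number limits the precision.

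Of 35556 probe sets 21789 had 1 symbol in the platform annotation, and 21698 of these matched the gene table of GRCm38.p6. The brightest probe set stood for each of 19938 genes. Each gene was fitted with limma 3.58.1 (R 4.3.3, lmFit and eBayes) with a mean for each of 14 groups on all arrays but 1, or on the arrays of a strain alone for within-strain effects. Contrasts were tested on both sides, p-values were adjusted over all genes after Benjamini and Hochberg, and the threshold was 0.05. Named members were the 12 largest changes across strains, the 2 largest each way within a strain, the 8 widest control strain ranges, the 4 smallest p of the hybrid contrast, the 3 largest each way between C57BL/6J and DBA/2J, members at the ends of signal, and Mrps5. Other genes named were up to 4 of a list by p. The members, lists and comparisons were chosen with earlier results of these data known. Lists are described by counts and medians, without a test. The fits were tested on simulated data. Figures were drawn with Python 3.11.15, pandas 2.3.3 and matplotlib 3.10.9. Alternatives were the array left out, normalization, a filter on dim genes, the probe set rule, the variance model, a replicate block, marker covariates, single arrays and single strains left out, and the methods' t-test.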

Additional observations from a re-analysis of the deposited data

Results flagged for a closer look

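One mouse lay far from the others of its group in 14 of 154 groups of values that were examined (the mean of the members and the log2 signal of 10 members, in 14 groups each), and chance alone marks about 1 in 20 such groups. B6C3F1/J control replicate 7 was high in 5 of them. Its member mean was 8.32 against 7.81 to 7.98 for the other mice, its Mrps22 signal 8.34, its Mrpl42 signal 9.31, its Mrps18c signal 9.18 and its Mrpl41 signal 8.15. CBA/J control replicate 1, the array of lowest correlation with its group, was low for Mrpl45 (6.17), Mrpl19 (7.22), Mrps27 (6.01) and Mrps5 (6.85), while its member mean did not stand apart. Single values stood apart for Mrpl19 in BALB/cJ control replicate 3 (7.82), for Mrpl42 in 129S1/SvImJ CR replicate 2 (9.28), in CBA/J control replicate 2 (8.90) and in DBA/2J control replicate 5 (7.60), and for Mrps5 in 129S1/SvImJ control replicate 1 (7.82).

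The response of Mrpl49 to CR differed between strains by the interaction test (F = 5.48, adjusted p = 0.0186 over all genes).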

How the results depend on the processing

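No member was lower in CR hearts across strains or within a strain under any alternative that was run, and the 12 largest rises kept their sign in all of them. The number of members higher across strains was 33 after another quantile normalization (6.77% of all genes). It was 39 with arrays centered on their median (8.21%) and 40 with the mean of the probe sets of a gene (7.71%). Without dim genes it was 46, where 13.6% of the genes kept were higher. It was 29 without 129S1/SvImJ (4.34%) and 29 without C57BL/6J (6.75%), 11 calls being lost in each of these. With DBA/2J CR replicate 7 kept, 17 members were higher across strains (2.74% of all genes) and 0 had an interaction. In that fit 1 differed between hybrid and parent mean and 26 between C57BL/6J and DBA/2J, and Mrpl34, Mrps33, Mrpl49 and Mrps5 lost their calls. With marker covariates 0 had an interaction, 5 differed in the hybrid contrast and 2 calls within strains were left of 29. Left out in turn, 7 single arrays gave 38 to 44 members higher across strains, 1 to 2 with an interaction (2 without CBA/J control replicate 1), 5 to 15 in the hybrid contrast and 29 to 43 within strains (43 without C57BL/6J CR replicate 4). Leaving out B6C3F1/J control replicate 7 was chosen after seeing the data. With the other 6 of these arrays left out together 8 members had an interaction. Without C57BL/6J, and without CBA/J, 0 had one. The methods' t-test at an unadjusted p under 0.01 gave 59 calls within strains and, after Benjamini-Hochberg, 28. The cause of these shifts was not tested. For counts given without a share of all genes, here and below, a change in the members cannot be told from a change over all genes.

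Deviations from the group means of same-numbered CR and control mice correlated between -0.44 and 0.67 (55 pairs, median 0.11, 28 above 0.1). For mice of a strain with different numbers the median was 0.0030 (385 pairs, 126 above 0.1). Same-numbered pairs were thus above 0.1 more often (50.9%) than the others (32.7%). The labels name nothing that a number shares, so the mice were not treated as paired in the main fit. What same-numbered mice share was not tested. With a replicate block 39 members were higher across strains (7.81% of all genes). The counts of the other comparisons were 1 for the interaction, 66 between strains, 11 for the hybrid and 41 between C57BL/6J and DBA/2J. Within strains the count was 26, with C57BL/6J going from 4 to 2. The number of all genes higher went from 42 to 199 in B6C3F1/J, where 0 members were called in either fit. It went from 774 to 747 in 129S1/SvImJ and from 30 to 32 in C57BL/6J.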
